A study of Mus musculus with 11 samples.

Results

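Arid1a, Arid1b and Arid2, the 3 SWI/SNF subunit genes with an ARID domain, were described by the histone peaks around them in glands of the mouse stomach. Their windows were the gene body and 50 kb on each side on mm10, and every peak of the 11 deposited lists that touched a window was taken. The 3 windows held 185 of the 210452 peaks, 56 at Arid1a, 96 at Arid1b and 33 at Arid2. Peaks that overlapped by at least 1 bp were merged over the libraries into 48 sites, 9 at Arid1a, 29 at Arid1b and 10 at Arid2. No peak height or score was used to choose the genes or the windows, though earlier results of these data were known when the genes were chosen.

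SWI/SNF complexes use the energy of ATP to slide or evict nucleosomes and so change which stretches of DNA other proteins can reach. ARID1A and ARID1B are large subunits of the canonical BAF form of the complex, in which they exclude each other, and ARID2 takes the corresponding place in the PBAF form. ARID1A is often mutated in human gastric cancer, and ARID1B is known as its paralogue that cells can come to depend on when ARID1A is lost. Acetylation of lysine 27 of histone H3 (H3K27ac) is found at active promoters and enhancers, and trimethylation of lysine 4 (H3K4me3) mainly at promoters.

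The series compared 4 genotypes, and its title names Arid1a dosage in gastric tumorigenesis as the subject. H3K27ac was profiled by chromatin immunoprecipitation and sequencing (ChIP-seq) in 2 libraries of each genotype and H3K4me3 in 1 library of each of 3. The genotypes were wild type; Atp4bCre with Rosa26NICD, here called NICD; NICD with Arid1aflox/+, called 1-allele; and NICD with Arid1aflox/flox, called 2-allele. All NICD, 1-allele and 2-allele mice therefore carried Cre driven by a gene of acid-secreting parietal cells and the active intracellular part of Notch, and only wild type lacked both. Cells of the gland in which this Cre was never active keep their floxed alleles, and fixed epithelial pellets were pooled before the precipitation. The sources do not say that libraries of one genotype came from separate animals, and p-values here cover the spread among libraries, which may be technical. The labels of the floxed H3K4me3 library disagree, with a heterozygote in the title and Arid1aflox/flox as genotype, so its allele number is open. The labels give no age or strain, and the protocol names an H3K27ac antibody only, so the antibody of the H3K4me3 libraries is not given.

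The lists differed in length, which bears on every count here. They held 20590 and 18360 peaks in wild type, 41405 and 25442 in NICD, 5165 and 7602 in 1-allele and 15362 and 14373 in 2-allele for H3K27ac, and 17558, 39420 and 5175 for H3K4me3 in wild type, NICD and the floxed library. Tags after duplicate removal ranged from 7.96 to 20.8 M in the 9 libraries that record them. The lowest was NICD replicate 2, with a redundant rate of 0.52. For H3K27ac they numbered 18.3 and 17.0 M in wild type, 13.9 and 7.96 M in NICD and 16.6 and 9.76 M in 1-allele. The shortest H3K27ac list, that of 1-allele replicate 1, thus came from more tags than either NICD list. The cause of the short 1-allele lists was not tested. Of 14 markers of gastric gland epithelium, 1 to 9 had an H3K27ac promoter peak in a library. Atp4a, the catalytic subunit of the parietal cell proton pump, had no promoter peak in any library. The promoter of Atp4b, its partner subunit, was called for H3K27ac in each wild-type library and 1-allele replicate 1 and in no NICD or 2-allele library. Its H3K4me3 was called in NICD and in the floxed library and not in wild type, with 1 library of each. Of the other markers, Epcam was called for H3K27ac in all 8 libraries and Muc5ac in none. Gkn2, Krt8, Krt18 and Cdh1, 4 of 14, were called in each wild-type and NICD library and no 1-allele library. Of all promoters, 11.5% were called in each wild-type but no 1-allele library, and 19.3% in each NICD but no 1-allele library. Tff1 was called in each wild-type library and replicate 1 of the other groups, and Gkn1 in wild type replicate 2 and NICD replicate 1. Muc6 and Tff2 were called in NICD replicate 1 alone, and Cblif and Pgc in wild type replicate 1 alone. Of 15 markers of blood cells, fibroblasts, muscle and endothelium, 3 had an H3K27ac promoter peak in NICD replicate 1, 2 in NICD replicate 2 and at most 1 in each other H3K27ac library, and their part in the results was not tested. In tissue of many cell types, fewer cells carrying a mark and less of the mark per cell cannot be told apart.

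The strength of a peak is given as its percentile by −log10 p within its own list, where 100 is the strongest, and as its rank where that helps. Both 2-allele lists hold positions only, and their order in the file was taken as the order of strength. Percentiles and ranks come from lists of different lengths, so they place a peak inside its list and show no change between libraries. Promoter peaks are those within 1 kb of any start of the gene. Since calls depend on depth and on the local background, the lack of a call does not show that the mark was absent.

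Arid1a lies on the minus strand at chr4:133679008-133756769 (mm10) and has 2 annotated starts that are 2784 bp apart, an outer one at 133756769 and an inner one at 133753985. Arid1b lies on the plus strand at chr17:4994297-5347656, with starts 777 bp apart at 4994297 and 4995074. Arid2 lies at chr15:96287522-96405463. Its start was placed at 96287522, the only end of the gene with an H3K4me3 peak within 1 kb, so the presence of H3K4me3 there follows from the choice. The RefSeq table of promoter sequences (GRCm38.p6, 250 bases before to 50 after a start) holds 2 of the 3 genes, and their sequences are printed because the strongest promoter peaks differ between the starts. Capitals mark the 50 bases from the start onwards.
Arid1a outer start, chr4:133756720-133757019, minus strand: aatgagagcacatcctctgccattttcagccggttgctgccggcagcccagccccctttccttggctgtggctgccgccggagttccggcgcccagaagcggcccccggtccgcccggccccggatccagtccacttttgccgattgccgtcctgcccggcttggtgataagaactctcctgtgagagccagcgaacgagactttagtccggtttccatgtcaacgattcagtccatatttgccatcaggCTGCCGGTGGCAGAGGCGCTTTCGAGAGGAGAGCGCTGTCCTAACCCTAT
Arid1a inner start, chr4:133753936-133754235, minus strand: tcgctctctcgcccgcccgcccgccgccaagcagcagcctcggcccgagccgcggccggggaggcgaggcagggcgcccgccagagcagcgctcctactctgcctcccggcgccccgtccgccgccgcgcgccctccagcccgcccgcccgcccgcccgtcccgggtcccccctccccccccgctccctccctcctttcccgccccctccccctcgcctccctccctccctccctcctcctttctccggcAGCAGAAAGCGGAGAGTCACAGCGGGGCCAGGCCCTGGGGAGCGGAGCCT
Arid1b inner start, chr17:4994824-4995123, plus strand: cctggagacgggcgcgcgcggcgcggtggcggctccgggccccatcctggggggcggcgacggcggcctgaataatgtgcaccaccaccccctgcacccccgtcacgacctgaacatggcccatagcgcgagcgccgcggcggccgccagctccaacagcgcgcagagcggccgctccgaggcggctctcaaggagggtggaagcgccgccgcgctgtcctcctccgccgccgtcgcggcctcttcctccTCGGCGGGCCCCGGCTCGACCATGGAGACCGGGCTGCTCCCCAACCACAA

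These windows differed in base composition. The inner Arid1a sequence had 79.7% G and C with 36 CpG dinucleotides, against 61.3% and 22 at the outer start, and the Arid1b sequence had 75.3% and 42. Over 32851 promoter sequences of the table the median was 52.7% G and C and 7 CpG, and 1.18% of them were at or above the G and C content of the inner Arid1a sequence, 26.2% at or above that of the outer one and 3.63% at or above that of Arid1b. The letters TGGGAA, the core of the motif of RBPJ, the DNA-binding partner of NICD, were looked for on both strands. They occur in none of the 3 sequences and in 25.6% of all 32851. That says only that these letters are not in these windows.

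**Figure D1:**
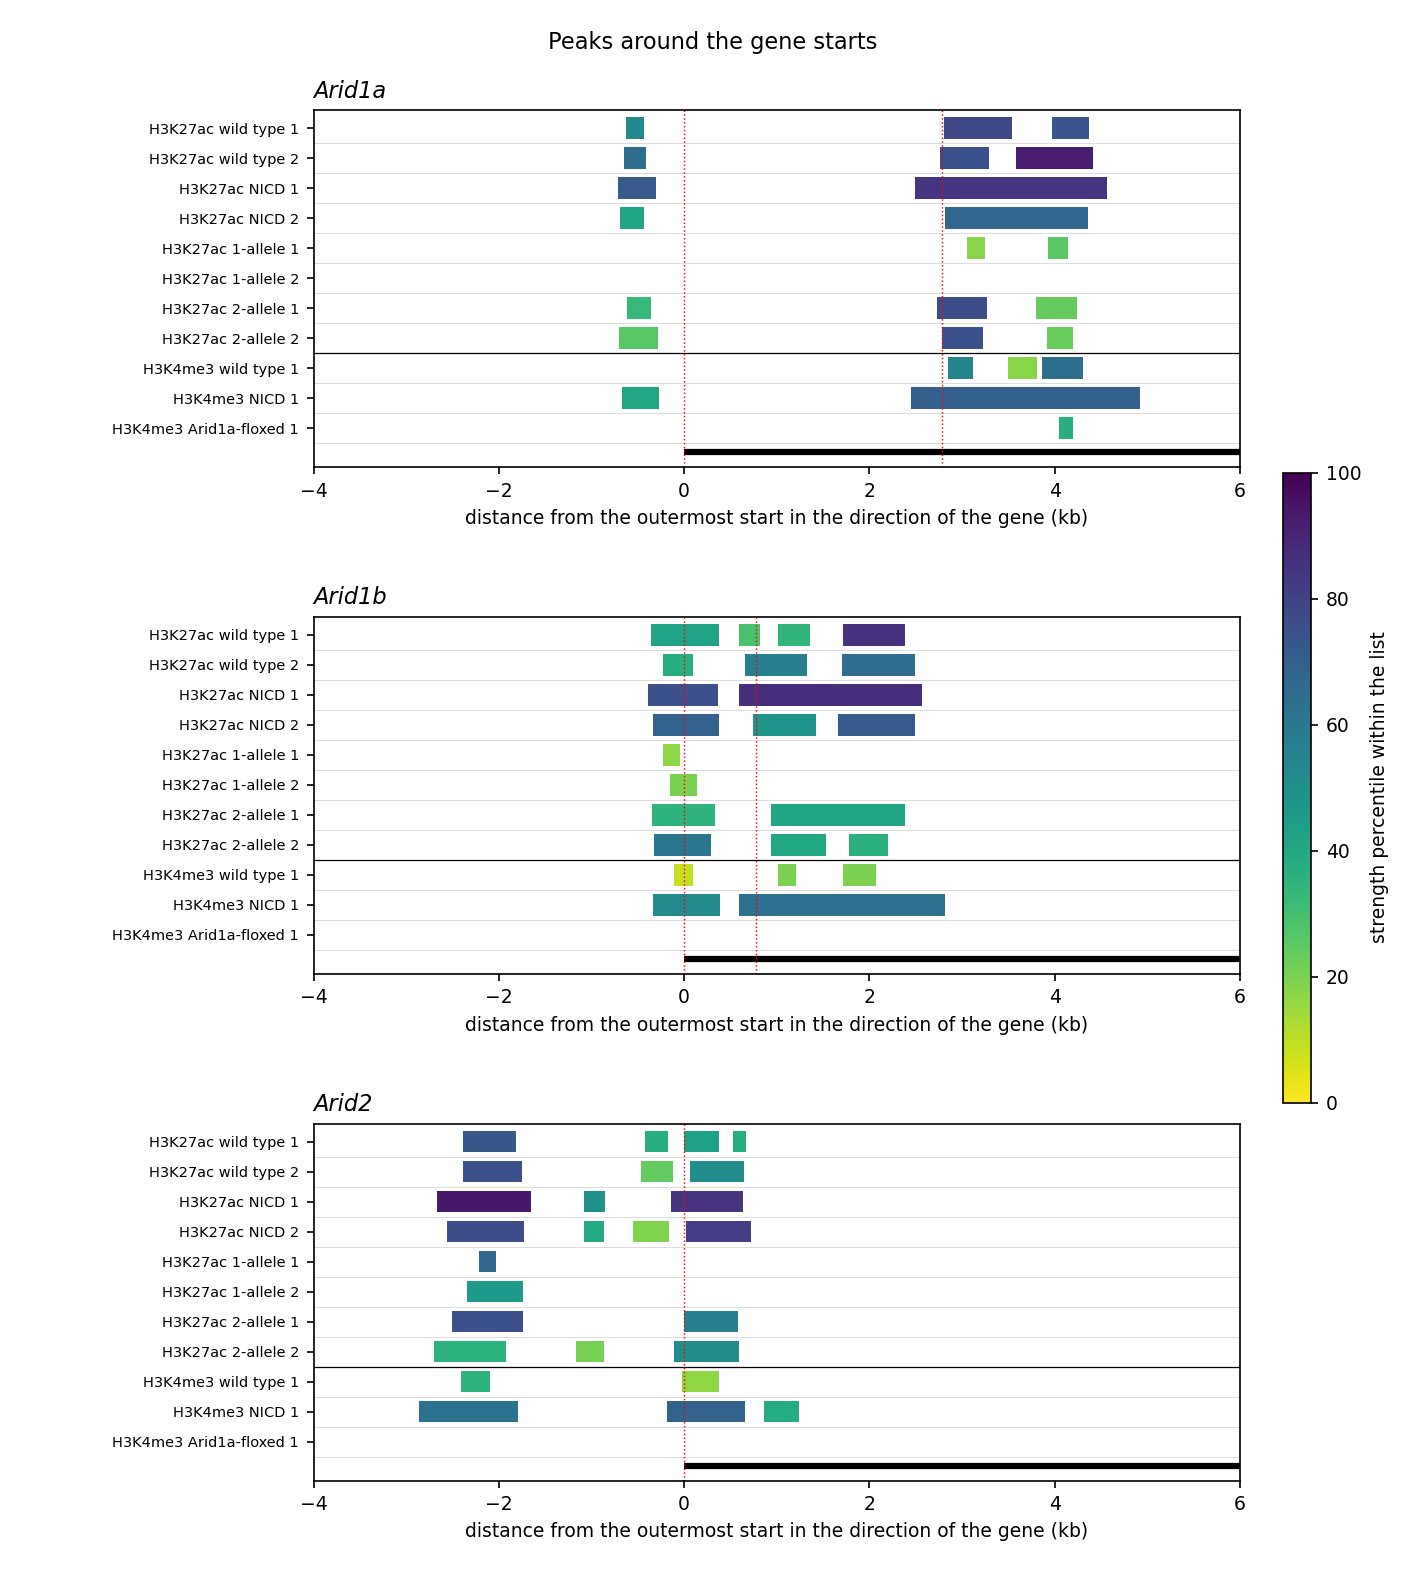
Peaks around the starts of the 3 genes in each of the 11 libraries, by distance from the outermost start in the direction of the gene (kb). Boxes are called peaks, coloured by strength percentile within the list, dotted lines are starts and the black bar is the gene; the Arid1a inner start is covered or flanked in 7 of 8 H3K27ac libraries, and the Arid2 site at -2.25 kb in all 8.

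At Arid1a, the floxed gene itself, H3K27ac was called at a start in 7 of the 8 libraries, including both with 2 floxed alleles. At a q-value of at most 1e-05, a filter that the 2-allele lists without q-values did not undergo, the 1-allele call was lost and 6 were left, and with every list cut to the length of the shortest there were 5. Of 21887 protein-coding genes, 14.7% had a promoter peak in all 8. Within 1 kb of the inner start the strongest peak stood at percentile 78.3 and 92.0 in wild type, 84.6 and 67.0 in NICD, and 76.2 and 75.3 in 2-allele. The 92.0 belongs to a peak further downstream, and within 500 bp of the start wild type replicate 2 stood at 75.1. In 1-allele replicate 1 the strongest peak stood at 17.6, and 1-allele replicate 2 had no peak there. All 6 other libraries therefore ranked the inner start in the upper part of their list, and the 1-allele libraries did not. Both 1-allele lists are the shortest for H3K27ac, with 17.6% and 27.6% of all promoters called. The shares were 45.5% and 43.3% in wild type, 55.1% and 49.7% in NICD and 45.1% and 43.4% in 2-allele.

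The peaks of the inner start also differed in width. Peaks within 2.5 kb of it together covered 1124 and 1368 bp in wild type and 2070 and 1544 bp in NICD. They covered 408 and 0 bp in 1-allele, and 977 and 720 bp in 2-allele. These widths were highest in both NICD libraries and lowest in both 1-allele libraries, a description that was not tested. Within 500 bp of the inner start wild type had 726 and 531 bp and 2-allele 535 and 439 bp, so those groups overlapped. The median width of all peaks also differed between the lists, with 240 and 272 bp in wild type, 396 and 347 in NICD, 247 and 332 in 1-allele and 410 and 411 in 2-allele. How the 2-allele peaks were called, which can set their width, is not stated. A second peak downstream, within the same merged site at chr4:133751841-133754316, was called in 1-allele replicate 1 at percentile 25.8. Such a separate peak was also called in wild type, at 73.2 and 92.0, and in 2-allele, at 23.5 and 23.3. In each NICD library a single peak spanned this stretch.

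The outer start was called in 6 of 8 libraries, with percentiles of 53.1 and 64.6 in wild type, 72.5 and 41.3 in NICD, and 33.0 and 25.8 in 2-allele. No 1-allele library had a peak there. In each of the 6 libraries the outer start ranked below the inner one, and the largest gap was in the 2-allele lists, where the outer peak was at rank 10294 of 15362 and 10664 of 14373 and the inner one at 3661 and 3548. All of these outer peaks lay upstream of the start, in a site at chr4:133757041-133757485, just outside the printed sequence. With the outermost start alone the promoter would count as called in 6 of 8 libraries.

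H3K4me3 was at the inner start of Arid1a in wild type, at percentile 54.7, and in NICD, at 69.6. The peak in NICD was 2476 bp wide with a summit pileup of 134 reads, where the median of that list was 30. The outer start had H3K4me3 in NICD alone, at percentile 40.4. In the floxed library no H3K4me3 peak lay within 1 kb of a start, and its closest was a peak of 158 bp at percentile 37.2, in the downstream part of the same merged site. There was 1 library per group, so these differences have no replicate check. Where the floxed part of the gene lies is not stated, so promoter peaks say nothing of its removal.

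The rest of the Arid1a gene body held no peak of either mark in any library. All other peaks of its window lay on the far side of the gene or upstream, and most were at starts of other genes. Pigv, an enzyme of the glycosylphosphatidylinositol anchor pathway, had H3K27ac at a start in 7 of 8 libraries, at percentiles from 65.5 in 1-allele replicate 2 to 94.4 in NICD replicate 1, and none in 1-allele replicate 1. Its H3K4me3 was called in all 3 libraries, and was the only other H3K4me3 peak of the floxed library in the 3 windows, at percentile 58.3. So the 1-allele library with a peak at Arid1a lacked one at Pigv, and the other one the reverse.

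Zdhhc18, which encodes a protein palmitoyltransferase, was called for H3K27ac in fewer libraries than Arid1a. Its promoter was called for H3K27ac in both NICD libraries, at percentiles 88.0 and 82.3, in both 2-allele libraries, at 50.4 and 55.9, and in no wild-type or 1-allele library. A distal site of the Arid1a window at chr4:133659553-133660735, 96.6 kb from the outer start and inside the annotated Pigv gene, had the same calls, with percentiles of 70.2 and 74.9 in NICD and 56.0 and 43.9 in 2-allele. Of 43537 merged H3K27ac regions, 1.19% had these calls. H3K4me3 at Zdhhc18 was nevertheless called in wild type, at percentile 54.8, as well as in NICD, at 85.0. The end of the pseudogene Gm13213 was called for H3K27ac only in NICD, at percentiles 37.7 and 8.10, and the long non-coding genes Gm29942 and Gm30019 had only an H3K4me3 peak, in NICD.

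**Figure D2:**
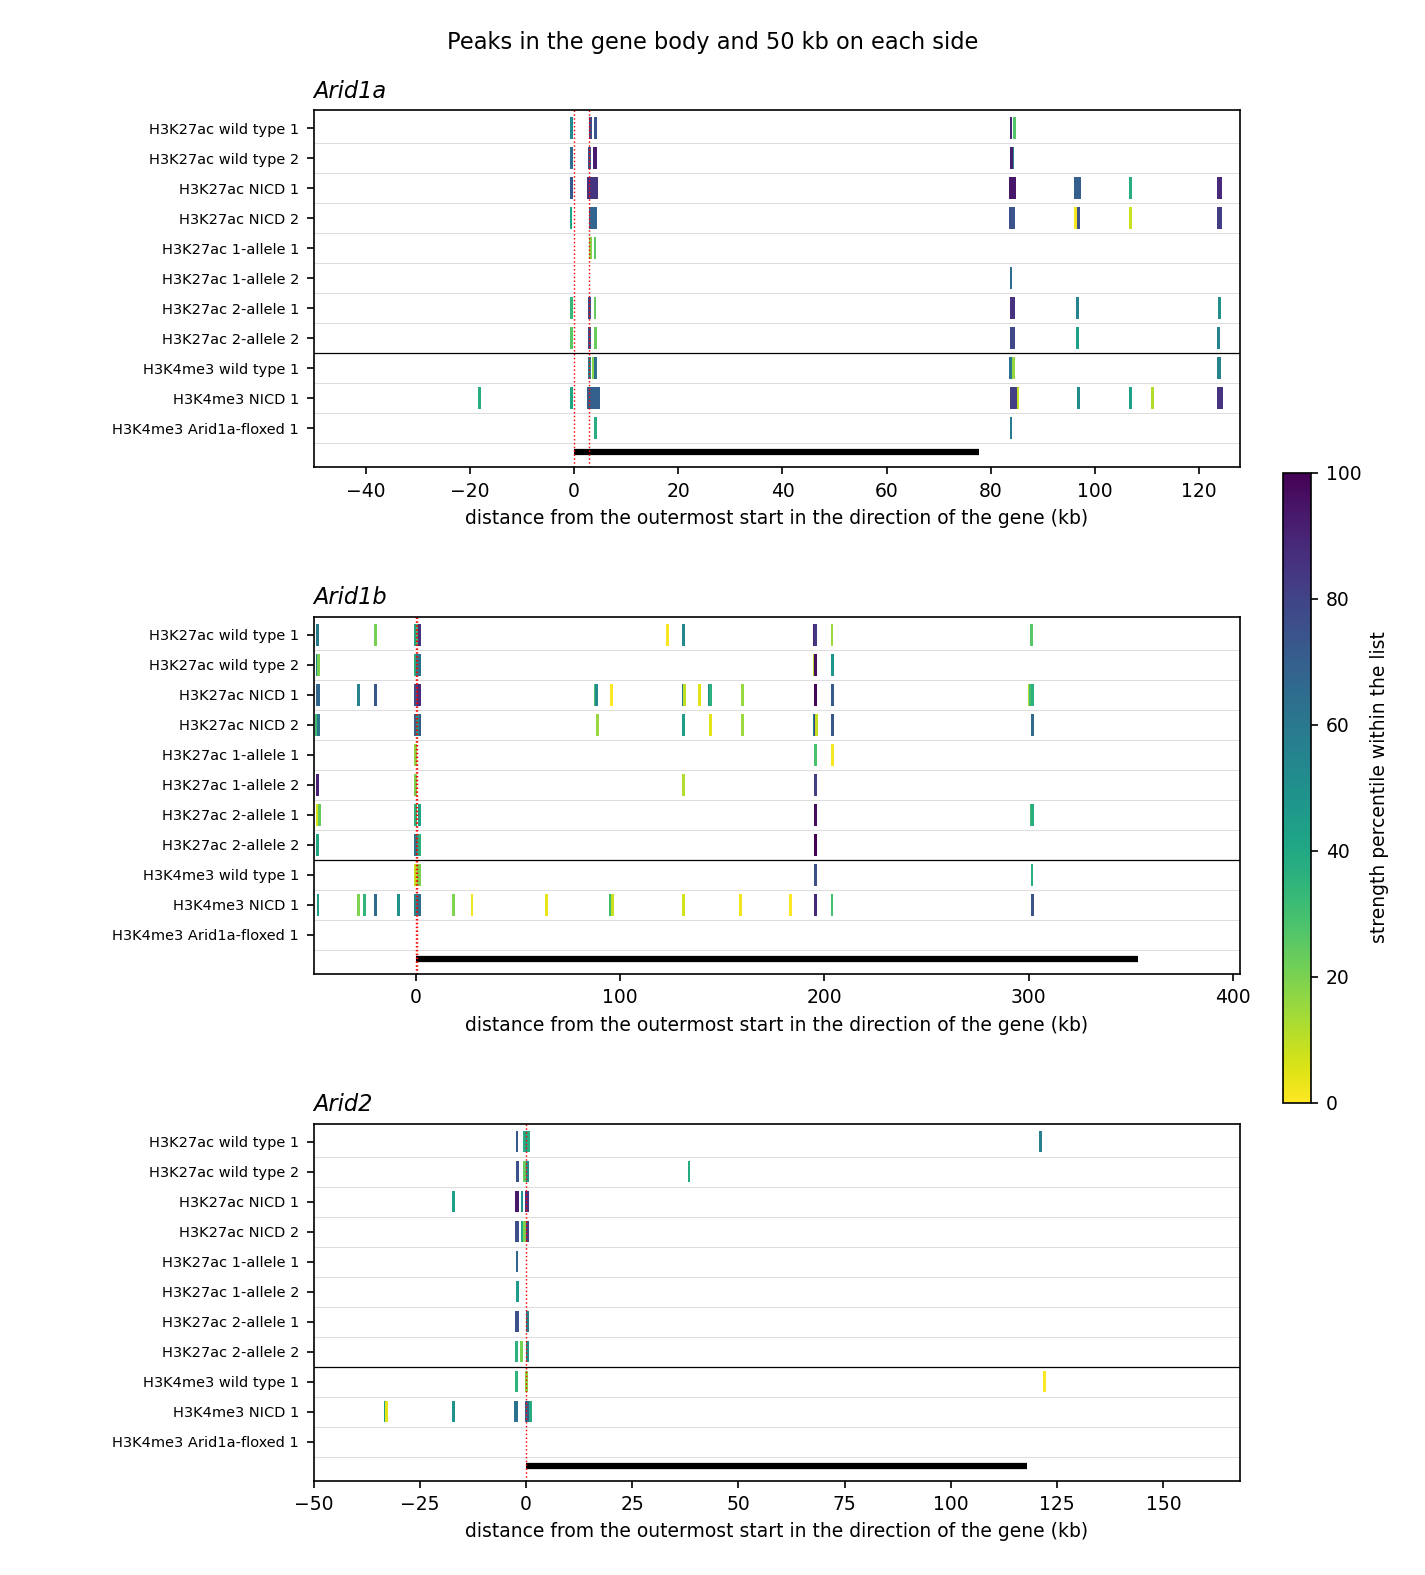
All peaks in the 3 windows by library, against distance from the outermost start in the direction of the gene (kb). Bars are called peaks, coloured by strength percentile within the list, the black bar is the gene; the Arid1a gene body is empty beyond its starts, whereas 22 of the 29 Arid1b sites lie in the gene body.

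At Arid1b, the paralogue, H3K27ac was called at a start in all 8 deposited lists. At a q-value of at most 1e-05 both 1-allele calls were lost, which left 6, where the 2-allele lists have no q-values and were not filtered. With every list cut to the 5165 peaks of the shortest, 2 calls were left, in wild type replicate 1 and 1-allele replicate 1. The percentiles in the full lists were 85.7 and 65.1 in wild type, 86.5 and 71.4 in NICD, 16.9 and 20.2 in 1-allele and 41.0 and 60.8 in 2-allele. The 1-allele libraries placed this promoter near the bottom of their lists, at rank 4295 of 5165 and 6070 of 7602, and the other 6 placed it between 41.0 and 86.5. In the 1-allele libraries a single peak of 190 and 289 bp lay at the outer start, and the site around the inner start, chr17:4994888-4997120, was not called. The other 6 libraries had both sites. The inner one reached 85.7 in wild type replicate 1 and 40.3 in 2-allele replicate 2, where it ranked below the outer one.

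H3K4me3 at the Arid1b promoter was at percentile 19.8 in wild type and 63.0 in NICD, and was not called in the floxed library. The floxed library had no H3K4me3 peak anywhere in the Arid1b window. The long non-coding gene Gm41517 upstream had H3K4me3 alone, in NICD, at percentile 34.6. Its start was placed at the end with that peak, so the presence of H3K4me3 there follows from the choice. The floxed library called 21.1% of all promoters, against 50.6% in wild type and 66.1% in NICD.

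Arid1b had 26 distal sites, meaning sites with no gene start within 1 kb, of which 22 lay in its gene body and 4 in the flanks. H3K27ac was called at 19 of them and H3K4me3 alone at 7, all of the latter in the NICD library, the longest H3K4me3 list. Of all 58978 merged regions of the series, promoters included, 43537 held H3K27ac and the rest H3K4me3 alone. Of the 19, 9 were called in a single H3K27ac library, and over all 29039 H3K27ac regions without a protein-coding start within 1 kb that share was 57%. NICD replicate 1, the longest list, was the single library at 8 of the 9. These were 8 of the 21 Arid1b sites with H3K27ac, promoters included. Over all 43537 H3K27ac regions, promoters included, 32.5% had H3K27ac in that library alone.

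The distal site with the highest percentile of the 3 windows in 6 of the 8 H3K27ac libraries was in the Arid1b gene body at chr17:5189393-5190744, 195.8 kb from the outer start. In 1-allele replicate 1 an Arid2 site at -2.25 kb stood higher, at 66.9, and in 1-allele replicate 2 an Arid1b site at -47.9 kb, at 90.7. It was the only distal site of Arid1b or Arid1a that was called in all 8 H3K27ac libraries, as were 1.32% of those 29039 regions. Its percentiles were 90.5 and 96.7 in wild type, 98.4 and 80.8 in NICD, 28.8 and 81.4 in 1-allele and 96.9 and 99.7 in 2-allele. In every H3K27ac library it ranked above the Arid1b promoter, and in NICD replicate 1 it stood at rank 652 of 41405. It also held H3K4me3 in wild type, at percentile 76.0, and in NICD, at 88.7, again above the annotated promoter. Of the 382 distal regions called in all 8 libraries, 83.8% held H3K4me3 in both of those libraries. No start in the gene table used lay within 1 kb of the site.

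Other Arid1b sites were called in fewer libraries. A site at chr17:5197898-5198471, 203.9 kb from the outer start, was called in wild type at percentiles 14.5 and 47.7, in NICD at 72.1 and 73.3, in 1-allele replicate 1 at 1.42 and in no 2-allele library. The reverse was seen at an upstream flanking site, chr17:4945629-4947208, at -47.9 kb from the outer start, which was called in 7 of 8 libraries, all but 1-allele replicate 1. Its highest percentile was 90.7, in 1-allele replicate 2, and its lowest 23.4, in 2-allele replicate 1. A site at chr17:5125048-5125826 was called in wild type replicate 1, both NICD libraries and 1-allele replicate 2, at percentiles from 11.9 to 59.0. So the 2 libraries of the 1-allele group did not share these 3 sites, each of which was called in one of them and not in the other.

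Sites called in each NICD library and in no wild-type library were counted as separating the groups. At Arid1b there were 4 such distal sites, at Arid1a 1 and at Arid2 none, 5 of the 24 distal sites with H3K27ac, and over the 29039 regions the share was 14.7%. The 4 at Arid1b lay 88.8, 144.4, 159.8 and 301.8 kb from the start. Their percentiles ran from 15.9 to 52.6 in NICD replicate 1 and from 4.49 to 64.9 in NICD replicate 2, and the last of them was also called in 2-allele replicate 1, at 38.2. That last site held H3K4me3 in wild type, at 37.0. A separate site close to it, at chr17:5295451-5295693, was called for H3K27ac in wild type replicate 1, at 26.2, so the separation there depends on where sites were split. No site of the 3 windows had the reverse calls, each wild-type library and no NICD library, as had 0.563% of all regions. Over all 33 sites with H3K27ac, promoters included, 8 separated NICD from wild type in this way (13% of all regions), 11 NICD from 1-allele (29.6%) and 6 NICD from 2-allele (15.7%). Another 5 were called in each 2-allele but no 1-allele library (9.36%), 3 in each wild-type but no 1-allele library (11.3%) and 2 in each 2-allele but no wild-type library (1.64%). All 8 libraries had a call at 3 sites (7.54%), which were the outer Arid1b promoter, the Arid1b site at 195.8 kb and an Arid2 site described with that gene. The 11 sites that separated NICD from 1-allele were 4 at Arid1a, 5 at Arid1b and 2 at Arid2.

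**Figure D3:**
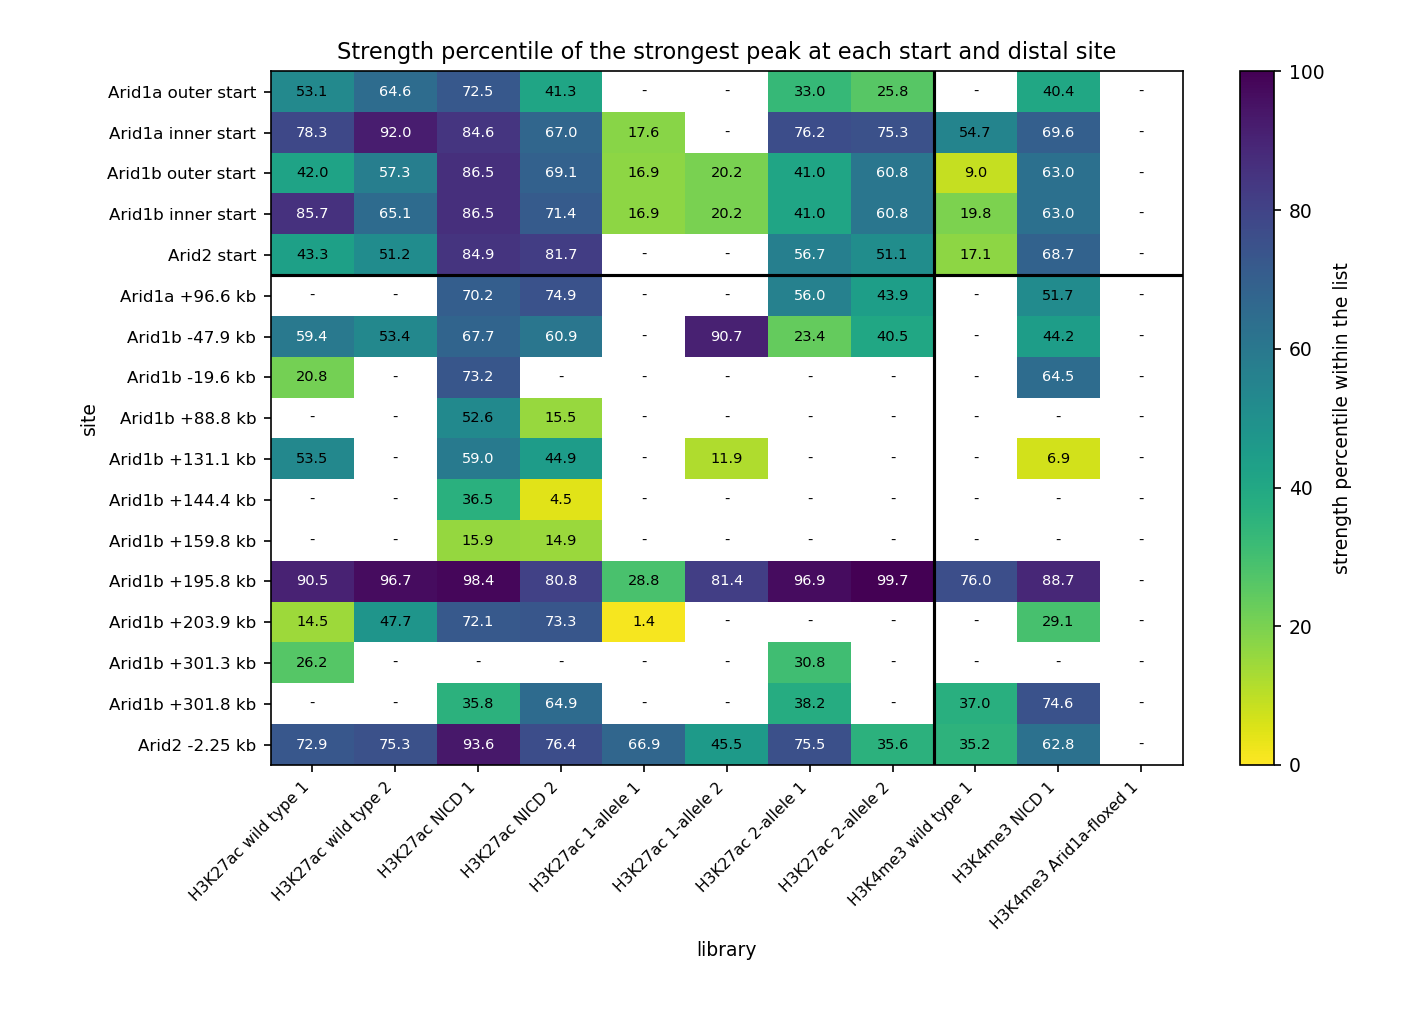
Strength percentile within its list of the strongest peak at each start and at each of the 12 distal sites with H3K27ac in at least 2 libraries (site by distance from the outermost start, against library). A dash is no called peak; the Arid1b site at +195.8 kb and the Arid2 site before the start are called in all 8 H3K27ac libraries, and the floxed H3K4me3 library has none of these.

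At Arid2, the PBAF subunit, H3K27ac was called within 1 kb of the start in 6 of 8 libraries and in neither 1-allele library. The percentiles were 43.3 and 51.2 in wild type, 84.9 and 81.7 in NICD and 56.7 and 51.1 in 2-allele. With this window and the deposited lists, Arid2 alone of the 3 genes separated NICD from 1-allele, as did 19.3% of all promoters. Arid1a did so too with the outermost start alone, and so did both Arid1a and Arid1b at a q-value of at most 1e-05. It separated 2-allele from 1-allele as well, with 12.3% of promoters, and wild type from 1-allele, with 11.5%. None of the 3 was called in each 2-allele but no wild-type library, as were 1.28%, and none in all 11 libraries of both marks, as were 8.47%. Of the 7951 promoters called in all 6 libraries of the other genotypes, 40.4% were called in both 1-allele libraries, as Arid1b was, 36.2% in exactly 1, as Arid1a was, and 23.5% in neither, as Arid2 was. These classes hold for the 1 kb window and the deposited lists. At a q-value of at most 1e-05 all 3 genes lacked a call in both 1-allele libraries, and with a window of 2.5 kb Arid2 had one in each.

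The absence at Arid2 depended on the width of the promoter window. A site at chr15:96284660-96285875, centred at -2.25 kb from the start, was called in all 8 H3K27ac libraries. Its percentiles were 72.9 and 75.3 in wild type, 93.6 and 76.4 in NICD, 66.9 and 45.5 in 1-allele and 75.5 and 35.6 in 2-allele. It ranked above the peak at the start in both wild-type libraries and in replicate 1 of NICD and of 2-allele, and below it in replicate 2 of NICD and of 2-allele. H3K4me3 was called there in wild type, at 35.2, and in NICD, at 62.8. With a promoter window of 2.5 kb Arid2 is called in 8 of 8 libraries, and with every list cut to the length of the shortest it is called within 1 kb in 1, NICD replicate 2.

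H3K4me3 at the start of Arid2 was at percentile 17.1 in wild type and 68.7 in NICD, and the floxed library had no H3K4me3 peak in the window. An end of the gene Gm38469, at 96287398, lies beside the start of Arid2, so the promoter peaks cannot be given to one of them. The Arid2 gene body held 1 further site, called at percentile 38.8 in wild type replicate 2 alone. The other peaks of the window lay in the flanks, and the long non-coding gene 4833422M21Rik had H3K4me3 alone, in NICD, at percentile 42.4. The start of that gene was also placed by its H3K4me3.

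The number of H3K27ac peaks in each window was then compared over the 4 genotypes. The Arid1a window held 5 and 5 peaks in wild type, 6 and 8 in NICD, 2 and 1 in 1-allele and 6 and 6 in 2-allele. The Arid1b window held 12 and 8 in wild type, 20 and 14 in NICD, 3 and 4 in 1-allele and 7 and 5 in 2-allele. The Arid2 window held 5 and 4, then 4 and 4, then 1 and 1, then 2 and 3 in the same order. At all 3 genes both 1-allele libraries, which have the shortest H3K27ac lists, had fewer peaks than any other library. The share of all genes with this order was not counted, so it is not read as a trait of the 3 genes. At Arid1b the means were 10 ± 2.83, 17 ± 4.24, 3.5 ± 0.707 and 6 ± 1.41 in the same order (SD, n = 2).

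An exact permutation test over every way to sort the 8 libraries into 4 pairs, on the sum of squares between groups, gave an unadjusted p of 0.0286 for Arid1a, 0.00952 for Arid1b and 0.0286 for Arid2. The value at Arid1b is the smallest this test can give. After Benjamini-Hochberg adjustment over all 21887 protein-coding genes the adjusted p was 0.153 for each of the 3 genes, and no gene fell below 0.05 (0 of 21887, 0%). With 0.00952 as the smallest exact permutation p, an adjusted p below 0.05 needs many other genes at that same value. The counts of a single window therefore cannot reach it alone, and the lack of a call does not show that the groups were alike. At an unadjusted p below 0.05 there were 4975 genes, 22.7%, so a p of this size was common.

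Counts move with the length of the list, and per 10000 peaks of the list the p-values were larger. Arid1a then had 2.58 ± 0.209 in wild type, 2.30 ± 1.199 in NICD, 2.59 ± 1.81 in 1-allele and 4.04 ± 0.190 in 2-allele (SD, n = 2). Arid1b had 5.09 ± 1.04, 5.17 ± 0.475, 5.54 ± 0.386 and 4.02 ± 0.762, and Arid2 had 2.30 ± 0.177, 1.27 ± 0.429, 1.63 ± 0.439 and 1.69 ± 0.555 in the same order. The exact permutation p-values were 0.448, 0.324 and 0.257, and 0.844, 0.708 and 0.618 after adjustment over all genes. None of 21887 genes passed (0%), and 3266, 14.9%, had an unadjusted p below 0.05. At the 1-allele libraries the Arid1b window therefore took a share of the list within the range of wild type, from 5.26 to 5.81 per 10000 against 4.36 to 5.83.

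**Figure D4:**
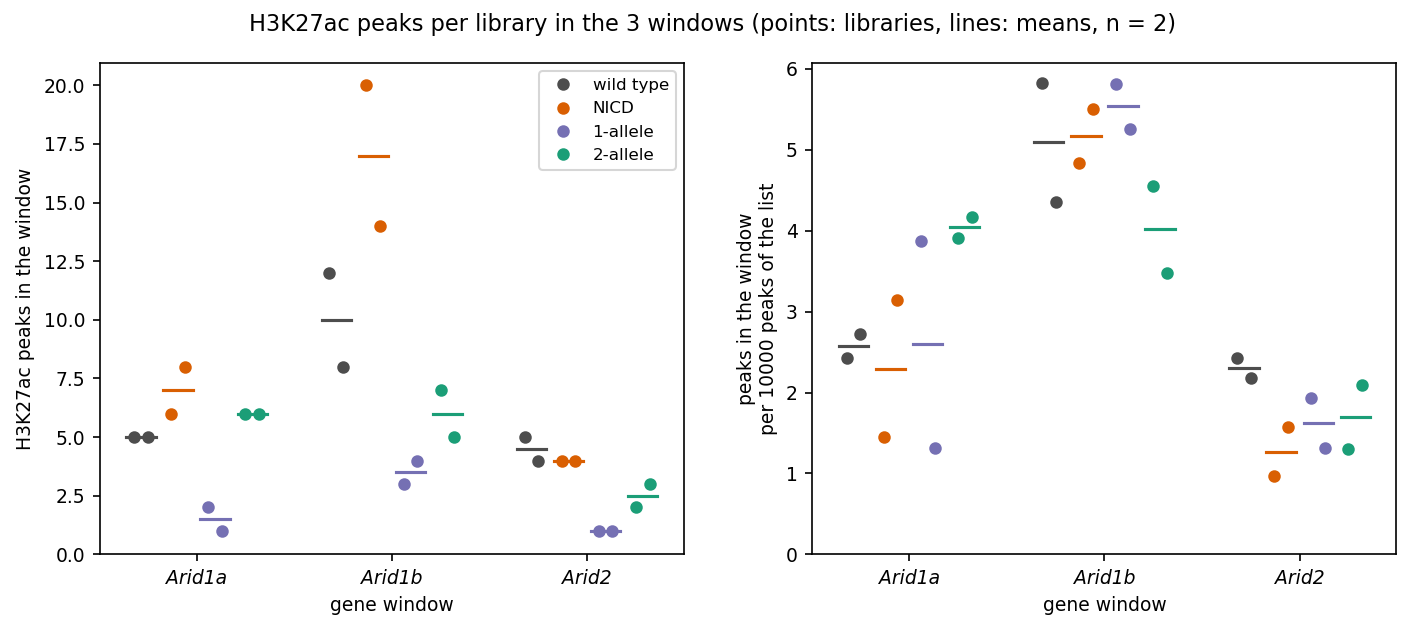
H3K27ac peaks in the window of each gene per library, as a count (left) and per 10000 peaks of the list (right). Points are libraries and lines are means of 2; the 1-allele libraries have the lowest counts at all 3 genes, whereas per 10000 peaks they overlap other groups at each gene.

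The Arid1b window is long, and its count is best read beside genes of like length. Among the 268 protein-coding genes whose length was within 1.2-fold of that of Arid1b, the median count was 0 to 3.5 per library, and Arid1b lay above 93.3% to 97.8% of them in each of the 8 libraries. Arid1a lay above 33.4% to 94.4% of 1232 such genes and Arid2 above 35.3% to 78.8% of 912. These percentages describe where the genes lie and were not tested.

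H3K4me3 peak counts had 1 library per group. They were 6 in wild type, 9 in NICD and 2 in the floxed library at Arid1a, 5, 18 and 0 at Arid1b, and 3, 6 and 0 at Arid2. The order of the 3 libraries was the same at each gene and the same as the order of the list lengths.

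How strong a promoter peak appeared depended on the measure. The mean percentile over both NICD libraries by −log10 p was 75.8 ± 12.5 at Arid1a, 78.9 ± 10.6 at Arid1b and 83.3 ± 2.25 at Arid2 (SD, n = 2). By the deposited fold enrichment over local background it was 23.0 ± 13.4, 21.5 ± 12.5 and 31.0 ± 6.01, and by summit pileup 95.4 ± 3.26, 97.4 ± 1.82 and 97.6 ± 0.152. In NICD replicate 1 the Arid1a promoter peak had a pileup of 93 against a list median of 25, and a fold enrichment of 4.18 against a median of 4.90. All 3 promoters were thus tall but low in fold over their surroundings in these 2 libraries, and the order of the 3 genes in them was not the same by each measure.

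**Figure D5:**
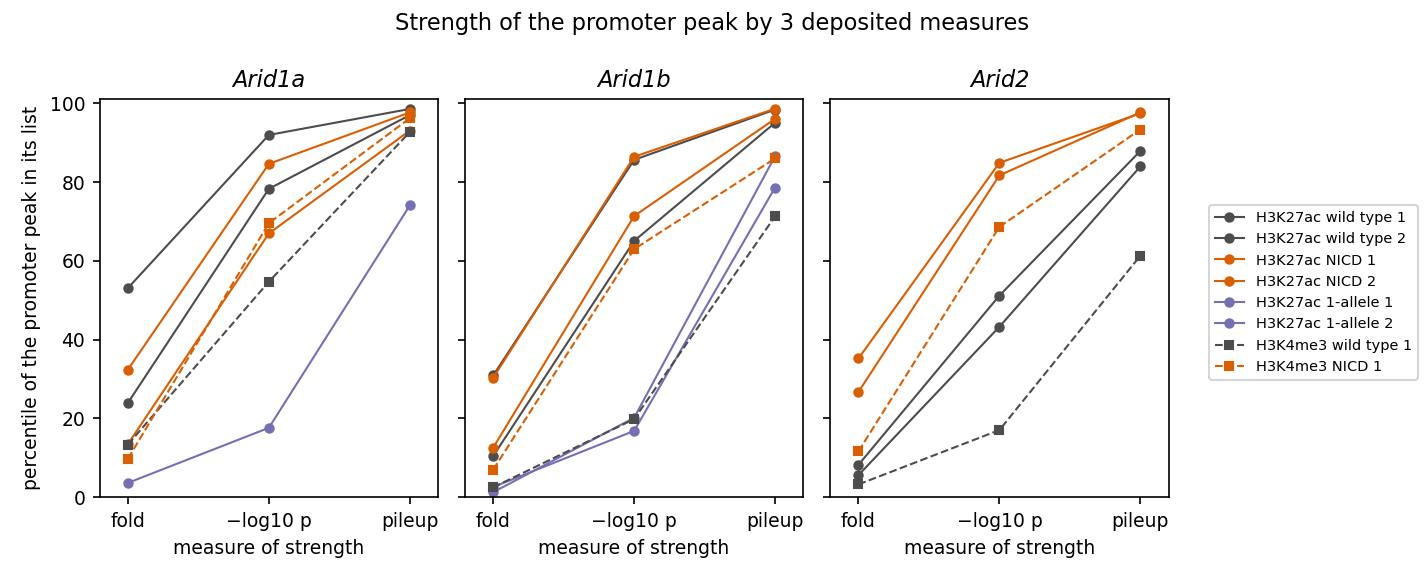
Percentile of the strongest promoter peak in its list by fold enrichment, −log10 p and summit pileup, in the libraries that have scores and a promoter peak. Lines join the values of one library; by fold one peak lies at percentile 53.1 and the others at or below 35.2, and by pileup they lie between 61.3 and 98.7.

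The other subunits of SWI/SNF gave the background for the 3 genes. Of 25 such genes, 18 and 19 had an H3K27ac promoter peak in wild type, 20 and 20 in NICD, 9 and 12 in 1-allele and 17 and 19 in 2-allele. The promoters of 6 were called in all 8 libraries, beside the 14.7% of all promoters. All promoters were called at 17.6% and 27.6% in 1-allele and at 43.3% to 55.1% in the other 6 libraries. Smarcc1, a core scaffold subunit, Bcl7c, Dpf2, a reader of acylated histones, Ss18l1 and Bicral separated NICD from 1-allele, 5 of 25 beside the 19.3% of all promoters. Of these, Smarcc1, Dpf2 and Ss18l1 were also called in both 2-allele libraries. Bicral, a subunit of the non-canonical complex, was the only one that separated NICD from wild type, as did 3.82% of promoters, and Smarcd3 the only one that separated NICD from 2-allele, as did 3.78%. H3K4me3 was called at 22 of 25 in wild type, all 25 in NICD and 11 in the floxed library. Of all promoters, these 3 libraries called 50.6%, 66.1% and 21.1% in the same order.

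Of the 12 genes with an ARID domain outside SWI/SNF, 10 and 8 were called for H3K27ac in wild type, 11 and 11 in NICD, 5 and 6 in 1-allele and 10 and 10 in 2-allele. Arid3a, Arid4a, Arid5a and Kdm5d, a histone demethylase gene, separated NICD from 1-allele, 4 of 12 beside 19.3%. All 4 were also called in both 2-allele libraries. Arid5b separated NICD both from wild type and from 2-allele. Both lists therefore had fewer members called in each 1-allele library than in each other H3K27ac library, as all promoters had.

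The called and not called pattern of Arid1a over all 11 libraries was shared by 255 of 21887 protein-coding genes (1.17%), that of Arid1b by 1336 (6.1%) and that of Arid2 by 1047 (4.78%). By the mean absolute difference in promoter percentile over the 11 libraries, with 0 where not called, the genes most like Arid1a were Hccs and Gm15246, neighbours that share the value of 4.82, and Irf2, at 5.08. Those most like Arid1b were Ptgfrn at 6.05, Tlr3 at 6.81 and Cmc4 at 7.23. Those most like Arid2 were Furin at 4.23, Arl4c at 4.62 and Tle1 at 5.08. The median difference over the 14659 genes called in any library was 27.5 for Arid1a, 29.2 for Arid1b and 28.0 for Arid2. Calls matched those of the member in 9 to 11 of 11 libraries.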

How the data were processed

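Mapping to GRCm38 (mm10) used Bowtie2 and peak calling used MACS2, per the submitters' processing notes. For 9 lists the file headers name MACS 2.0.10.20131216 with no control library, no duplicates, a q-value cut of 0.05, a background taken from up to 10 kb around and the human preset of 2.7 Gb as effective genome. The authors deposited for each peak the pileup signal at its summit, −log10 of a p-value and of a q-value, and a fold enrichment ratio. These values ranked or filtered peaks only within a list. The 2 lists of 2-allele libraries hold positions only, and neither their caller nor their depth is stated. Over regions shared by both, their file orders had a Spearman rho of 0.676 (n = 11768).

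Starts were those of the RefSeq promoter table plus the outermost end by strand (17492 of 21887 protein-coding genes). For 2581 genes, Arid2 among them, the single end with an H3K4me3 peak within 1 kb was used, and for 1814 both ends. Neighbouring genes can share a peak. Peak counts per window were tested for every protein-coding gene by an exact permutation test over all groupings into 4 pairs, with Benjamini-Hochberg adjustment. Pairs of groups were not tested, since an exact permutation test of 2 against 2 libraries cannot go below p = 0.333. The test was tried on simulated counts in which unchanged genes had the same expected count in every library. The lists here differ in length, so that check does not cover them. Scripts used Python 3.11.15, numpy 2.4.6, scipy 1.17.1, pandas 2.3.3 and matplotlib 3.10.9. Named genes were the 3 members, genes with a called start in a window and the 3 most similar genes per member. SWI/SNF and other ARID-domain list genes were named where they separated 2 groups. All markers of gastric gland epithelium were named, whether or not they separated groups. Markers of blood cells, fibroblasts, muscle and endothelium were given as counts, and of these Ptprc and Acta2 separated NICD from other groups. Members and lists were chosen with earlier results of these data known. Alternatives were the flank, the promoter window, a q-value of 1e-05, lists of equal length, the overlap, the measure of strength, a replicate block and leaving out each library.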

Additional observations from a re-analysis of the deposited data

How the results depend on the processing

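No control library entered the peak calls, so a wide domain can lack a call, and depth is unknown for the 2-allele libraries. None of the 78 alternative settings of the 6 window tests brought an adjusted p below 0.05, and the lowest was 0.0964. A single window cannot pass this adjustment unless many other genes also reach the smallest p of the exact permutation test. That the calls stayed the same therefore says little about the 3 windows. The number of the 8 libraries with a called promoter moved more. With a q-value of at most 1e-05 it was 6 for Arid1a and 6 for Arid1b, the lost calls being those in 1-allele; both 2-allele lists have no q-values and were not filtered. With every list cut to the length of the shortest, 5165 peaks, it was 5 for Arid1a, 2 for Arid1b and 1 for Arid2. With the outermost start alone, a setting chosen after seeing the data, it was 6 for Arid1a, and with a promoter window of 2.5 kb it was 8 for Arid2. The cause of these moves beyond the shorter lists or other windows was not tested.

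Leaving out each library in turn, the percent of the sum of squares between groups ranged from 89.9 to 98.6 for Arid1a counts, 85.6 to 94.99 for Arid1b and 91.25 to 96.9 for Arid2, against 93.2, 88.0 and 93.75 with all libraries. For shares of the list it ranged from 27.8 to 79.4, 31.0 to 77.2 and 45.4 to 75.6, against 43.7, 55.7 and 60.7. The replicate block left these percentages as they were, and gave exact permutation p-values of 0.0833, 0.0417 and 0.0833 for the counts and adjusted p-values of 0.308, with 0.0417 the smallest it can give. Libraries with the same replicate number did not deviate together over 14960 genes (correlations from -0.0325 to 0.0563). That cannot show whether they were handled together. The block changed no call, but with that smallest p a call would need most genes to reach it.

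Genes with an unadjusted p below 0.05 for the count numbered 4975, against 2492 with a flank of 20 kb, 7794 with 100 kb, 70 with equal lengths, 1456 with the block and 2296 to 6301 with a library left out. Without 1-allele replicate 1 there were 2296, without its replicate 2 3040, without wild type replicate 1 or 2 3158 and 3316, and without 2-allele replicate 1 or 2 2667 and 2616. For the share there were 3266, against 134 with equal lengths, 2020 with the block, 2091 without NICD replicate 1, and 3858 and 4816 without 1-allele replicate 1 or 2. Percentiles of the promoter peaks by fold and pileup are given with the other results, and with an overlap of at least 50% the Arid1b peaks of NICD replicate 1 shared with replicate 2 numbered 9 in place of 11.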
